A study of Homo sapiens with 10 samples.

Results

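Epithelial-mesenchymal transition (EMT) genes were examined in RNA of PC-3 spheroids, using 10 genes of the 18144 in the deposited table. They were the transcription factors SNAI2, SNAI1, ZEB1 and TWIST1, the epithelial genes CDH1, EPCAM and ESRP1, and the mesenchymal genes CDH2, VIM and FN1. The list was chosen by gene symbol with the values of these libraries already known, and SNAI2 was put first because its level was higher with daily fractions of topotecan (EE) than with a bolus (CON) on both days. The comparison of EE with CON is therefore a description with no test, and fits of either regimen against untreated use the same treated libraries. All 10 genes, and 14836 of the 18144, passed the filter on low values, which asked for at least 0.528 counts per 1000000 reads (CPM) in at least 2 libraries.

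PC-3 is a castration-resistant human prostate cancer line, described in the labels as wild type (WT), and it was grown here as spheroids. Topotecan, an inhibitor of DNA topoisomerase I, was given either as a conventional bolus at the start of the week (CON in the labels, CONV-TOPO in the study) or as daily fractions adding up to the same weekly amount (EE, extended exposure, also called METRO in the labels, EE-TOPO in the study). Untreated spheroids (CTRL) gave 1 library each for days 0, 3 and 7, and each regimen gave 1 for day 3 and 1 for day 7. Day 1 was not analysed here, and the colour key of a bar chart in the study, on RNA-seq after treatment, gives the CON spheroids of day 3 a smaller bolus than those of day 7, so the CON libraries differ in more than time.

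EMT is a change of cell state in which epithelial cells loosen their cadherin-based junctions and take on a motile, matrix-producing phenotype. Transcription factors of the SNAIL, ZEB and TWIST families bind short DNA elements called E-boxes and repress junction genes such as CDH1. Carcinoma cells often hold epithelial and mesenchymal genes together, a mixed state known from many cancer lines.

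Depth ranged from 15.0 M to 22.5 M reads (M, 1000000 reads) per library, deepest in EE of day 3. The number of genes at 0 was 592 in that library, 2132 in CON of day 7, 1662 in EE of day 7 and 988 to 1253 in the others. Levels are deposited CPM. Ratios are of CPM after scaling with TMM (trimmed mean of M-values) factors, with an exact 95% interval that covers counting error only and compares 2 libraries, not 2 conditions. There is no replicate for any treatment and day. In bulk RNA a lower level from fewer cells of a type and from less RNA per cell cannot be told apart.

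The libraries carried the marks of the labelled line. KRT8 and KRT18, keratins of simple epithelium, were at 624 to 1169 CPM and 474 to 864 CPM, and CTNNA1, the alpha-catenin known to be lost in PC-3, was at 0 to 0.42 CPM. Among markers of other cell types, the fibroblast gene DCN, the endothelial gene VWF and the leukocyte gene PTPRC were each at or below 0.49 CPM in every library. Other markers of these types were higher. The summed level of 5 fibroblast markers was 7.72 to 24.6 CPM, with COL3A1 at up to 16.0 CPM. That of 3 endothelial markers was 38.5 to 84.0 CPM, mostly from PECAM1 at 16.8 to 32.7 CPM and KDR at 15.7 to 63.6 CPM. That of 4 leukocyte markers was 69.3 to 131.8 CPM, mostly from CD68.

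Per kilobase of transcript, the untreated spheroids of day 0 had VIM first at 340 CPM per kb, followed by EPCAM at 126. FN1 and CDH1 followed at 54.6 and 49.0 CPM per kb, and ESRP1 and TWIST1 at 34.2 and 19.2. CDH2 stood at 8.42 CPM per kb, above SNAI2, SNAI1 and ZEB1 at 3.98, 3.06 and 1.65 CPM per kb. Epithelial and mesenchymal genes were thus both among the higher members, and 3 of the 4 transcription factors were the lowest. FN1 and CDH1 changed places on day 3, when FN1 was at 43.0 and CDH1 at 46.3 CPM per kb, and so did SNAI1 and ZEB1, at 2.05 and 2.31 CPM per kb, so neither order held across untreated libraries.

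**Figure D1:**
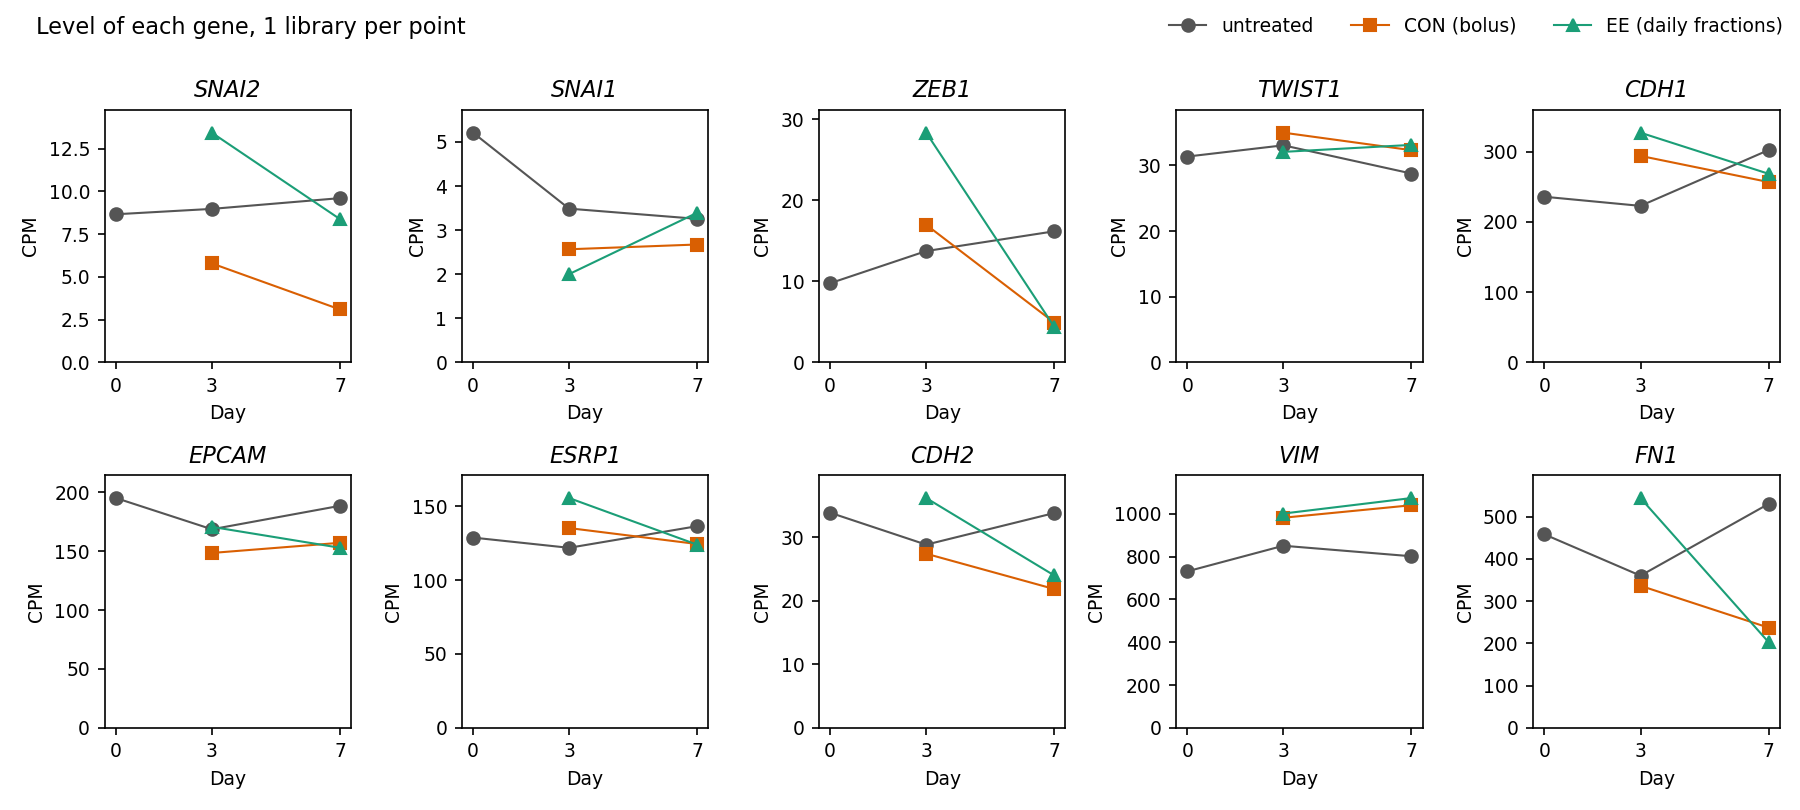
Level of each of the 10 genes in deposited CPM (y axis, from 0) by day (x axis), with 1 library per point and no replicates, for untreated, CON and EE spheroids. SNAI2 was at 5.79 and 3.10 CPM with CON and at 13.4 and 8.38 CPM with EE, and ZEB1 was at 28.3 and 4.39 CPM with EE.

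SNAI2 (SLUG), a zinc-finger repressor of junction genes, lies on chromosome 8 at 48917598 to 48921429, minus strand, in hg38, a span of 3832 bases. Untreated spheroids held 8.67, 8.98 and 9.61 CPM (days 0, 3 and 7). The CON libraries held 5.79 CPM (day 3) and 3.10 CPM (day 7), the EE libraries 13.4 and 8.38 CPM. The untreated libraries stayed close together, the CON libraries were the 2 lowest of the 7 and EE of day 3 was the highest. These levels rest on few reads, from an estimated 51 in CON of day 7 to 302 in EE of day 3.

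Against CON, SNAI2 with EE was 2.28-fold higher on day 3 (95% interval 1.80 to 2.93) and 2.65-fold higher on day 7 (1.90 to 3.75). The untreated libraries show on which side the regimens departed. With CON, SNAI2 was at 0.625 of the untreated level on day 3 (0.477 to 0.813) and at 0.384 on day 7 (0.276 to 0.527). With EE it was at 1.43 times the untreated level on day 3 (1.18 to 1.73) and at 1.02 times on day 7 (0.805 to 1.29). On day 7 the distance between regimens therefore came with a low CON value, while the EE value lay within counting error of the untreated one.

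Across the table, 298 of 13684 genes with a mean of at least 1 CPM were at least 2-fold apart between the regimens on day 3 (2.18%) and 476 of 13222 on day 7 (3.60%), and SNAI2 was the 1 member among them each time. With a floor of 10 CPM, which SNAI2 does not reach in these pairs, the shares were 0.304% on day 3 and 0.383% on day 7, with none of 8 and none of 7 members. On both days 34 of 13017 genes were at least 2-fold higher with EE, SNAI2 included, and 16 were at least as far apart as SNAI2 on both days, itself counted. Of the members, SNAI2, CDH1, CDH2 and VIM were higher with EE on both days by any amount, which is 4 of 10 beside 26.1% of all genes.

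**Figure D2:**
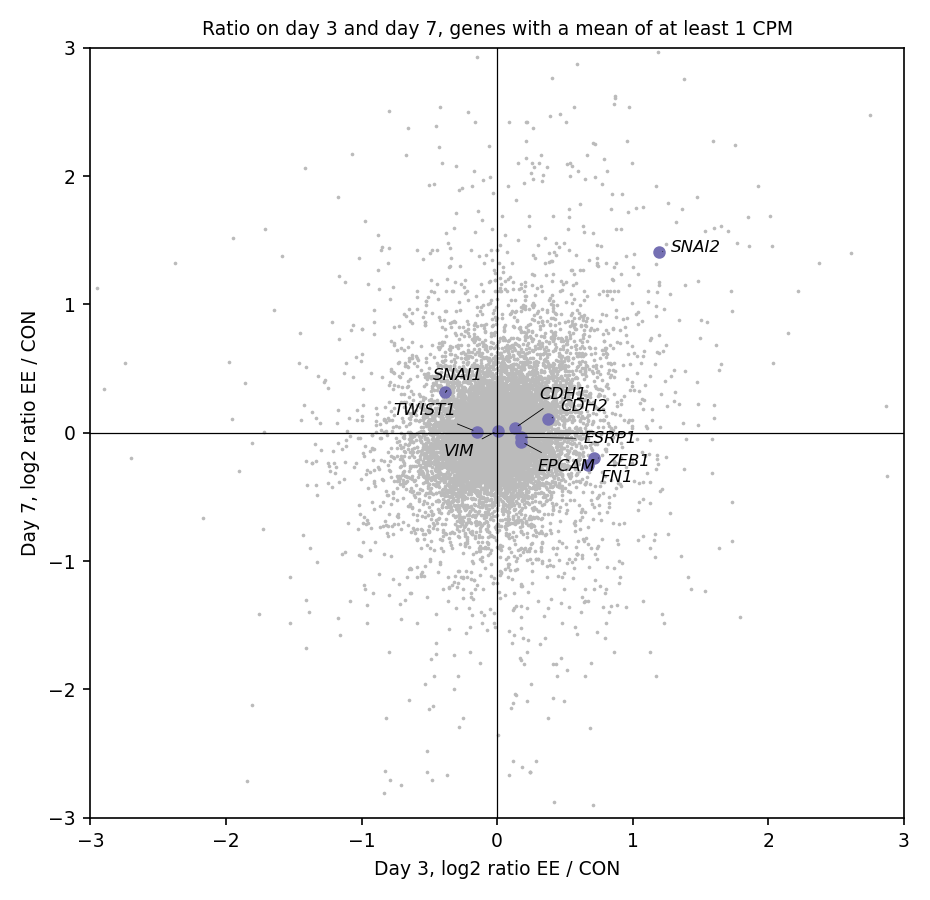
Log2 ratio of EE to CON on day 3 (x axis) and day 7 (y axis) for genes with a mean of at least 1 CPM (grey), with the 10 members in purple; 44 of 13476 genes lie beyond the axes. SNAI2, at 1.19 and 1.41, is the member farthest from 0 on each axis, and ZEB1 and FN1 lie to the right of 0 on day 3 and below it on day 7.

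The genes with levels most like those of SNAI2 over the 7 libraries, among 9985 genes with a mean of at least 10 CPM, were DHX57 (Pearson r = 0.98), TRIM59 (0.96), MAP3K10 (0.94), and SIK1 and SIK1B (0.92 each). DHX57 spanned only 11.6 CPM in CON of day 7 to 19.6 CPM in EE of day 3, a smaller range than that of SNAI2. SIK1 and SIK1B had identical values in every library and are near-identical copies, so their reads could not be assigned with certainty. These correlations are descriptions over 7 libraries that share untreated controls and culture, and they were the highest of a large number.

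SNAI1 (SNAIL), the closest relative of SNAI2 and a short-lived repressor of CDH1, lies on chromosome 20 at 49982980 to 49988883, plus strand. It was at 5.21, 3.49 and 3.26 CPM in untreated spheroids of days 0, 3 and 7, at 2.57 CPM (day 3) and 2.67 CPM (day 7) with CON, and likewise at 2.0 and 3.39 CPM with EE. SNAI1 did not follow SNAI2: its highest level was in untreated spheroids of day 0 and its lowest in EE of day 3, the library with the highest SNAI2. At day 3 the EE level was 0.547 of the untreated one (0.366 to 0.812), whereas the intervals of CON on both days and of EE on day 7 included 1. Between the regimens its ratio was 0.768 on day 3 (0.489 to 1.21) and 1.24 on day 7 (0.815 to 1.91). An estimated 39 to 104 reads per library stood behind these values, and both intervals between the regimens included 1. Per kilobase, SNAI2 was at 5.25 times SNAI1 in EE of day 3 and at 0.907 times SNAI1 in CON of day 7.

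TWIST1, a basic helix-loop-helix factor that also represses CDH1, lies on chromosome 7 at 19113048 to 19117636, minus strand. It was the steadiest of the 4 factors, at 31.4, 33.1 and 28.8 CPM in untreated spheroids of days 0, 3 and 7, at 35.0 and 32.3 CPM with CON and at 32.1 and 33.1 CPM with EE. On day 3 its ratio to untreated was 1.03 with CON (0.912 to 1.15) and 0.925 with EE (0.830 to 1.03). On day 7 both regimens were above untreated by about the same ratio, 1.34 with CON (1.19 to 1.51) and 1.34 with EE (1.19 to 1.52). Once the trend of day-7 ratios with gene span, transcript length and GC content was removed, these ratios became -0.22 and -0.23 on the log2 scale, the opposite side of 0.

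ZEB1, a zinc-finger and homeodomain factor that represses CDH1 and is held down by the miR-200 family in epithelial cells, lies on chromosome 10 at 31318417 to 31529804, plus strand, a span of 211388 bases. Untreated spheroids held 9.77, 13.7 and 16.2 CPM on days 0, 3 and 7. The CON libraries held 17.0 CPM (day 3) and 4.92 CPM (day 7), the EE libraries 28.3 and 4.39 CPM. The treated libraries thus had both the highest and the lowest values. Both day-3 libraries were above every untreated one, CON by a small margin (17.0 against 16.2 CPM), and both day-7 libraries were below.

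On day 3, ZEB1 with EE was at 1.97 times the untreated level (1.70 to 2.28) and with CON at 1.20 times (1.00 to 1.43). On day 7 it was at 0.317 of untreated with EE (0.239 to 0.415) and at 0.362 with CON (0.280 to 0.464). The regimens differed on day 3, by 1.64-fold (1.42 to 1.91), and their ratio on day 7 was 0.875 (0.622 to 1.23). The endothelial gene KDR and the fibroblast gene COL3A1 were also highest in EE of day 3, at 63.6 and 16.0 CPM, whereas VWF and DCN there were at 0.0445 and 0 CPM, and their part in the ZEB1 value was not tested. On the other strand, ZEB1-AS1 shares 2031 bases with ZEB1 and was at 1.70 to 4.27 CPM. Whether reads were counted by strand is not given in the sources used here, so reads of this overlap cannot be assigned with certainty, which bears most on the low ZEB1 values of day 7.

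The stretches upstream of the start of ZEB1, FN1 and VIM are shown because these genes lay farthest from untreated in both regimens on day 7 among the members for which RefSeq (GRCh38.p14) promoter entries were matched, 4 of 10, the fourth being CDH2. Each covers the 250 bases before the annotated start, written 5′ to 3′ on the strand of the gene, at chr10:31318167-31318416 (plus strand) for ZEB1, chr2:215436069-215436318 (minus strand) for FN1 and chr10:17227991-17228240 (plus strand) for VIM. Capitals mark the E-box CAGGTG or, on the other strand, CACCTG, the form that SNAIL and ZEB factors are known to bind.
ZEB1: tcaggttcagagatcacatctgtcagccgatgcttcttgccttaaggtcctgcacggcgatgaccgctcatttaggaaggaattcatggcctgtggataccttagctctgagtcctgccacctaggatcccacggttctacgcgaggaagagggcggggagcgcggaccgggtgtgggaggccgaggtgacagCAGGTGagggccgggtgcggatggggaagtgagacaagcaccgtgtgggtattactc
FN1: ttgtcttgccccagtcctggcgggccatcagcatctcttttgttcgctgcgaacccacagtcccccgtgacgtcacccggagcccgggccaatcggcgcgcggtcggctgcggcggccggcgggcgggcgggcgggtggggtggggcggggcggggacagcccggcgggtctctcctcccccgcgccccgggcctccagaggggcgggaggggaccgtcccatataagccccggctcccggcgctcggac
VIM: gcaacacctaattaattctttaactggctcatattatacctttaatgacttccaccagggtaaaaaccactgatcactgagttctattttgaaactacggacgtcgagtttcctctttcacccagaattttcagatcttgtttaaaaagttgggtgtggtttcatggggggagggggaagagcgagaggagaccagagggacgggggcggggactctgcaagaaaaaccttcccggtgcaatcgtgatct
This element was found once, beginning 57 bases before the ZEB1 start, and in none of the other 3 windows, CDH2 included. It occurs in 17.5% of the 27305 windows of this length, and the wider form CANNTG in 62.2%. A match is a description of the letters and no evidence of binding. The FN1 window was 76.4% G or C with 32 CG pairs, that of ZEB1 59.2% with 15 and that of VIM 46.0% with 8.

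FN1, which encodes fibronectin of the extracellular matrix, lies on chromosome 2 at 215360865 to 215436068, minus strand. It was at 458, 360 and 530 CPM in untreated spheroids of days 0, 3 and 7, at 336 CPM (day 3) and 237 CPM (day 7) with CON, and likewise at 544 and 203 CPM with EE. In deposited CPM its pattern had the shape of that of ZEB1, highest in EE of day 3 and lowest in the day-7 libraries of both regimens. With EE it was at 1.44 times untreated on day 3 (1.40 to 1.48) and at 0.447 on day 7 (0.429 to 0.465). With CON the ratios were 0.904 on day 3 (0.872 to 0.938) and 0.533 on day 7 (0.513 to 0.553). Untreated spheroids alone spanned a ratio of 1.46 from day 3 to day 7 (1.41 to 1.5), and after TMM scaling the EE library of day 3 lay inside the untreated range.

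VIM, the intermediate filament vimentin, lies on chromosome 10 at 17228241 to 17237593, plus strand, and had the highest level per kilobase of the members in every library. Untreated spheroids held 731, 851 and 802 CPM on days 0, 3 and 7, CON 982 and 1041 CPM on days 3 and 7, and EE 1002 and 1074 CPM. All 4 treated libraries were above the 3 untreated ones, and VIM was the only member with all 4 on 1 side. The ratio to untreated was 1.12 with both regimens on day 3, and 1.55 with CON (1.51 to 1.58) and 1.56 with EE (1.53 to 1.60) on day 7. Between the regimens VIM differed by less than counting error, with ratios of 1.00 on day 3 (0.983 to 1.03) and 1.01 on day 7 (0.991 to 1.03). The antisense gene VIM-AS1 overlaps 1745 bases of VIM, and at 0.638 to 2.53 CPM it was far below VIM itself.

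CDH2, the N-cadherin that replaces E-cadherin in EMT, lies on chromosome 18 at 27950966 to 28177130, minus strand. It was at 33.8, 28.8 and 33.8 CPM in untreated spheroids of days 0, 3 and 7, at 27.4 CPM (day 3) and 21.8 CPM (day 7) with CON, and likewise at 36.1 and 24.0 CPM with EE. On day 7 the ratio to untreated was 0.769 with CON (0.674 to 0.877) and 0.828 with EE (0.726 to 0.944). Both turned to the other side of 0 with the span, length and GC trend removed, at 0.11 and 0.25 on the log2 scale. VIM and CDH2, though both counted as mesenchymal, thus lay on opposite sides of untreated on day 7 before that removal.

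CDH1, the E-cadherin of adherens junctions and a main target of the 4 factors, lies on chromosome 16 at 68737292 to 68835536, plus strand. It was at 236, 223 and 302 CPM in untreated spheroids of days 0, 3 and 7, at 294 CPM (day 3) and 257 CPM (day 7) with CON, and likewise at 327 and 268 CPM with EE. On day 3 CDH1 was above untreated with both regimens, by 1.28-fold (1.23 to 1.33) and 1.40-fold (1.35 to 1.45) in that order. On day 7 the ratios were 1.01 (0.972 to 1.05) and 1.04 (0.996 to 1.08). In EE of day 3, where SNAI2 and ZEB1 had their highest levels, CDH1 also had its highest level in deposited CPM. After TMM scaling CDH1 in that library, at 299.5 CPM, was close to EE and CON of day 7, at 298.1 and 290.7 CPM. Per kilobase, CDH1 was at 5.82, 6.46 and 7.47 times CDH2 in untreated spheroids of days 0, 3 and 7. It was at 8.96 and 9.82 times with CON on days 3 and 7 and at 7.55 and 9.35 times with EE. Each treated library was above the 3 untreated ones in this ratio, EE of day 3 only narrowly, and no interval was computed for it.

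EPCAM, an epithelial adhesion molecule, lies on chromosome 2 at 47369311 to 47387020, plus strand. It was at 195, 169 and 189 CPM in untreated spheroids of days 0, 3 and 7, at 149 and 157 CPM with CON, and at 171 and 153 CPM with EE on days 3 and 7. The largest departure from untreated was in CON of day 3, at 0.853 (0.808 to 0.901), and the others were 0.947 to 0.992.

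ESRP1, a splicing factor that maintains epithelial isoforms, lies on chromosome 8 at 94641174 to 94707466, plus strand. It was at 129, 122 and 136 CPM in untreated spheroids of days 0, 3 and 7, at 135 and 124 CPM with CON, and at 156 and 124 CPM with EE on days 3 and 7. Its ratio to untreated was 1.08 and 1.09 with CON and 1.22 and 1.06 with EE. The 3 epithelial members were therefore within 0.947 to 1.09 of untreated on day 7, when ZEB1 and FN1 were at less than 0.54 of untreated in both regimens. That statement holds only with the span, length and GC trend left in. With the trend removed, CDH1 was at 0.38 with CON and 0.43 with EE on the log2 scale. EPCAM was then at -0.21 and -0.27, and ESRP1 at 0.48 and 0.45. The statement also depends on TMM scaling, which moved the median of all genes on day 7 by 0.25 with CON and 0.22 with EE on the log2 scale. With deposited totals the day-7 ratios were 0.849 and 0.888 for CDH1, 0.833 and 0.811 for EPCAM and 0.912 and 0.908 for ESRP1, with CON and EE in that order, all below 1.

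**Figure D3:**
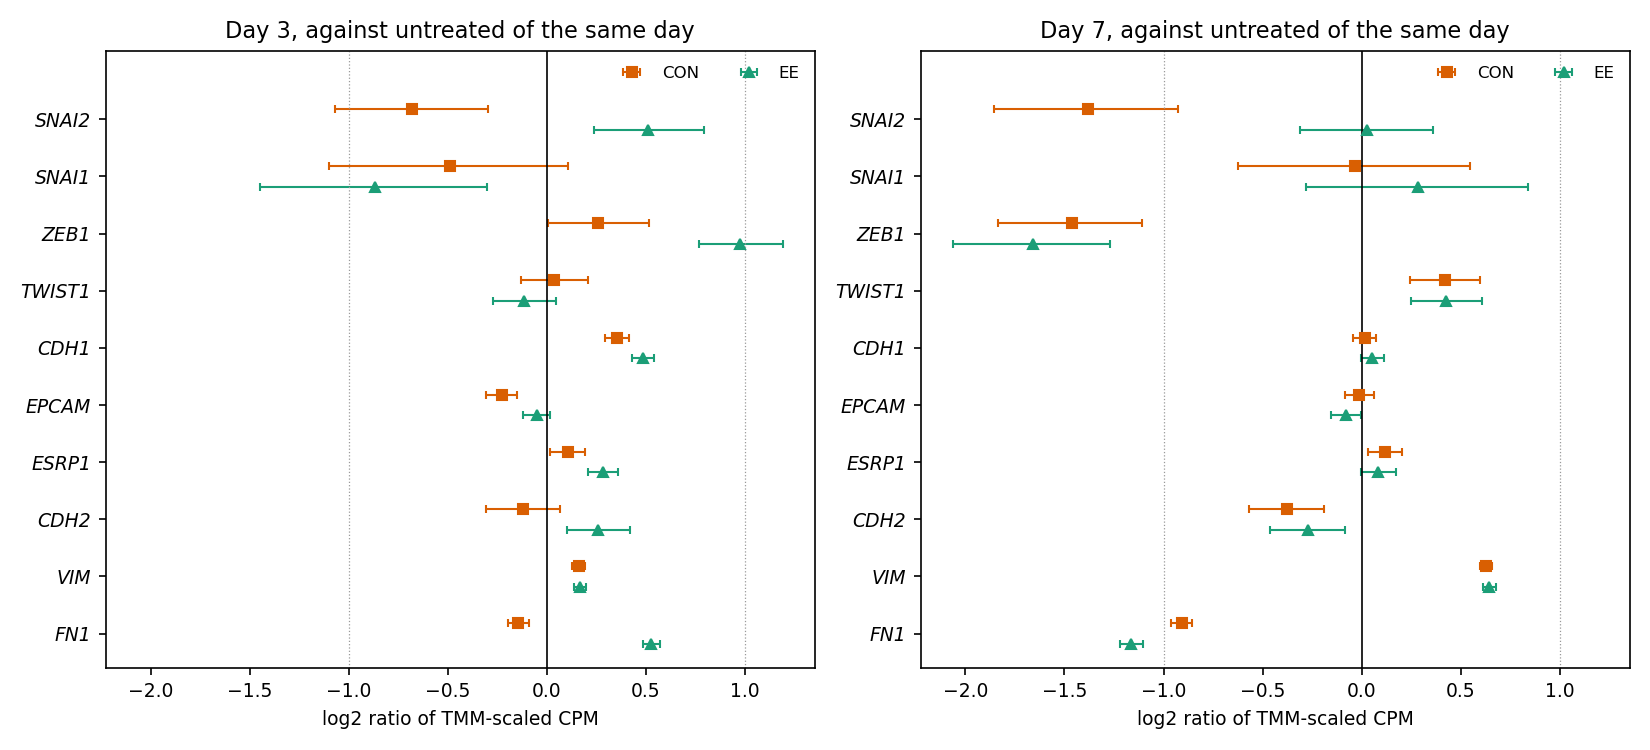
Log2 ratio of TMM-scaled CPM to the untreated library of the same day (x axis) for each member (y axis), on day 3 (left) and day 7 (right), with exact 95% counting intervals as bars and dotted lines at 2-fold. ZEB1 with EE lies at 0.98 on day 3 and at -1.66 on day 7, while SNAI2 with CON lies at -0.68 and -1.38.

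Day 7 differed from day 3 across the whole table. At least 2-fold from untreated with a floor of 10 CPM were 0.701% of genes with CON and 1.60% with EE on day 3, with no member, and 16.8% with CON and 19.3% with EE on day 7. On day 7 the members past 2-fold were ZEB1 with CON, 1 of 8, and ZEB1 and FN1 with EE, 2 of 8, which is near those shares. With a floor of 1 CPM, SNAI2 and ZEB1 were 2 of 10 with CON on day 7 beside 21.3%, and 0 of 10 on day 3 beside 2.83%. Untreated spheroids of days 7 and 3 were at least 2-fold apart in 1.65% of genes and in none of 8 members.

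The ratios of day 7 went with gene structure. Span, transcript length and GC content together accounted for 44.9% of the variance of log2 ratios with CON and 42.0% with EE over 11126 genes. The rank correlation with span across genes was -0.53 in each, whereas on day 3 it was 0.27 and 0.43. For EE against CON it was 0.32 on day 3 and -0.05 on day 7. Between untreated libraries it was 0.37 for day 7 against day 3. It was 0.29 for day 7 against day 0 and -0.08 for day 3 against day 0. CDH2, ZEB1, CDH1 and FN1 span 226165, 211388, 98245 and 75204 bases, and SNAI2, TWIST1, SNAI1 and VIM 3832 to 9353. With this trend removed, ZEB1 was at -0.70 with CON and -0.86 with EE on the log2 scale, against -1.46 and -1.66 before, and FN1 at -0.37 and -0.60, against -0.91 and -1.16. SNAI2 with CON was at -1.46, against -1.38 before, so the removal took it no closer to 0, and VIM stayed above untreated at 0.25 in both regimens.

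**Figure D4:**
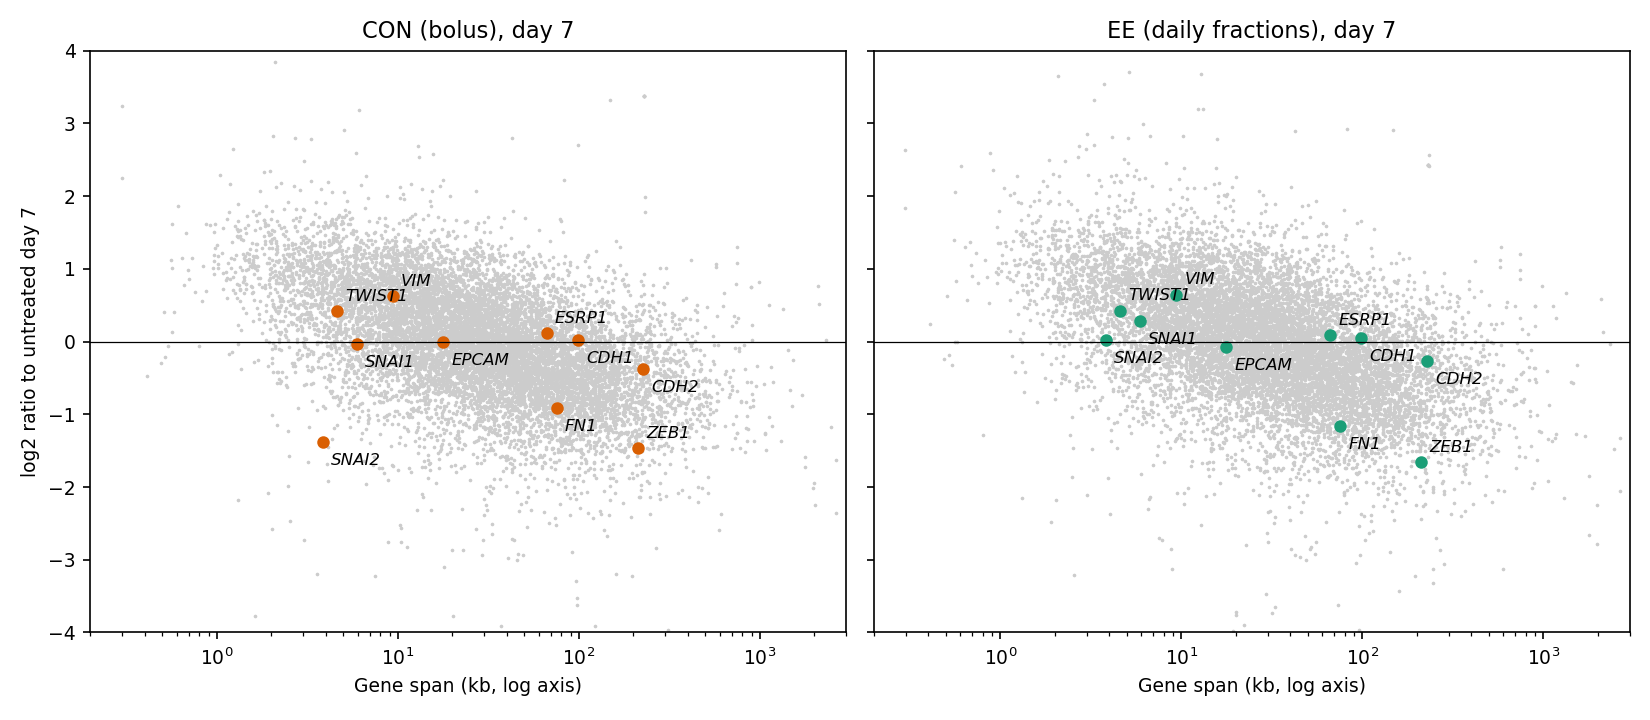
Log2 ratio to the untreated library of day 7 (y axis) against gene span in kb (log x axis) for genes with a mean of at least 5 CPM (grey) and the members (coloured), with CON left and EE right. Longer genes lie lower in both panels, ZEB1 and FN1 lie below 0 in both, and SNAI2 lies at -1.38 among short genes with CON and at 0.03 with EE.

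A fit over the 6 libraries of days 3 and 7, with treatment and day as terms, had 2 residual degrees of freedom, and its error is the variation of an effect between days. With limma and Benjamini-Hochberg adjustment, 0 of 14836 genes (0%) passed an adjusted p of 0.05 with EE or with CON, and so no member did. At an unadjusted limma p under 0.05 there were 527 genes with EE (3.55%), no member among them. With CON there were 257 (1.73%), with SNAI2 as the only member. SNAI2 was put first through the same CON libraries, so its p in this fit is no independent support. SNAI2 with CON was at -0.88 on the log2 scale (SE 0.298, limma adjusted p = 0.913, lower on 2 of 2 days), and its adjusted p ranged from 0.0051 to 1 over the alternatives. The lowest value came from the fit without the untreated library of day 3, in which FN1, VIM and ZEB1 also passed with each regimen. That fit compares the treatments with untreated spheroids on day 7 alone, and its error, with 1 residual degree of freedom, is the difference of the regimens between days. ZEB1, whose direction turned between days, was at -0.28 with EE (SE 0.560, limma adjusted p = 0.942) and -0.54 with CON (SE 0.560, limma adjusted p = 0.913).

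Genes of the same pathway were read from 5 lists, counting those at least 2-fold from untreated on day 7 among genes with a mean of at least 10 CPM. Of all genes, 8.64% were higher and 8.17% lower with CON, and 9.52% and 9.76% with EE. In the list of epithelial genes, 8 of 39 were higher and 1 lower with CON, and 11 of 39 higher and 0 lower with EE, with median log2 ratios of 0.42 and 0.62 beside -0.04 for all genes. The medians were 0.17 and 0.36 with the span, length and GC trend removed. By any amount, 26 of 40 epithelial genes were higher and 14 lower with CON, and 27 and 13 with EE. None of these counts has a replicate, and no test of the list was made.

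The epithelial genes farthest from untreated were ELF3, PRSS8, KRT7 and MUC1. ELF3, an epithelial transcription factor, was at 106, 167 and 128 CPM in untreated spheroids, at 264 CPM (day 3) and 383 CPM (day 7) with CON and likewise at 183 and 386 CPM with EE. PRSS8, a membrane-anchored protease of epithelia, was at 39.7 CPM in untreated spheroids of day 7, 107.5 CPM with CON and 114.1 CPM with EE. KRT7, a simple-epithelium keratin, was at 406 CPM in the untreated library of day 7, at 712 CPM with CON and at 1035 CPM with EE. MUC1, an apical mucin, was at 41.1, 91.0 and 79.2 CPM in the same order. All 4 were higher with both regimens on day 7, but other genes of the list were lower. DSG2 was at -1.15 with CON and -0.88 with EE on the log2 scale, and GRHL2 at -0.89 and -0.71. CDH1, EPCAM and ESRP1 were within 0.947 to 1.09 of untreated, with TMM scaling and the trend left in.

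In the list of mesenchymal genes, 1 of 25 was higher and 4 lower with CON on day 7, and 1 of 25 higher and 5 lower with EE, with medians of -0.25 and -0.19. By any amount, of the 29 genes that passed the filter, 14 were higher and 15 lower with CON, and 13 and 16 with EE. With the span, length and GC trend removed the medians were -0.02 and 0.07. The 4 farthest from untreated were CCN2, ITGAV, COL5A1 and FBN1, all lower. On the other side, LGALS1 was at 1.19 with CON and 0.98 with EE on the log2 scale. CCN2, a matrix-associated growth factor, was at 123, 83.6 and 79.3 CPM in untreated spheroids and already at 34.2 and 34.3 CPM on day 3 with CON and EE, then at 21.1 and 24.5 CPM on day 7. ITGAV, the integrin alpha-V subunit, was at 96.4 CPM in untreated spheroids of day 7, 25.5 CPM with CON and 35.0 CPM with EE. COL5A1 and FBN1, a collagen chain and fibrillin, had day-7 log2 ratios of -1.21 and -0.84 with CON and -1.22 and -1.42 with EE.

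Other EMT transcription factors showed 0 of 11 higher and 2 lower with CON on day 7, and 1 higher and 0 lower with EE. Over the genes that passed the filter, the median log2 ratios were -0.144 with CON and 0.033 with EE. With the span, length and GC trend removed they were -0.097 and 0.089. TCF4 and TCF12, E-proteins that pair with TWIST1, had log2 ratios of -1.19 and -1.14 with CON and -0.91 and -0.998 with EE. ID1 and ID3, which sequester E-proteins, had 0.88 and 0.28 with CON and 0.91 and 1.09 with EE. Members of each class lay on both sides of untreated, since the E-protein TCF3 was at 0.40 with CON and 0.33 with EE and the inhibitor ID2 at -0.60 and -0.54, named after their values were seen.

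Among 16 SNAIL corepressors and turnover genes, 0 were higher and 1 lower with each regimen on day 7, FBXL14 with CON and SUZ12 with EE. FBXL14, an F-box protein that marks SNAIL factors for degradation and that fell short of the floor in the EE pair, was at 15.4 CPM in untreated spheroids, 6.08 CPM with CON and 3.79 CPM with EE. SUZ12, a Polycomb subunit, was at 98.3, 43.0 and 37.3 CPM in the same order. RCOR1 and BTRC, a corepressor and another F-box protein, had log2 ratios of -0.53 and -0.64 with CON and -0.64 and -0.58 with EE. Over the 18 genes of this list that passed the filter, the medians were -0.295 with CON and -0.281 with EE. With the span, length and GC trend removed they were -0.008 and 0.114.

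In the cadherin-catenin complex, 0 of 8 genes were higher and 1 lower with CON on day 7, and 1 higher and 1 lower with EE. The median log2 ratios of these genes were -0.484 with CON and -0.437 with EE. With the span, length and GC trend removed they were on the other side of untreated, at 0.251 and 0.247. JUP, the plakoglobin that links cadherins to the cytoskeleton, was at 258 CPM in untreated spheroids, 391 CPM with CON and 476 CPM with EE. NECTIN2, an adhesion receptor, had log2 ratios of 0.75 with CON and 0.80 with EE. AFDN and VCL, the junction linkers afadin and vinculin, had -1.26 and -0.68 with CON and -1.33 and -0.66 with EE. The partners of CDH1 thus lay on both sides of untreated. The intervals of CDH1 itself, with TMM scaling and the trend left in, included 1.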

How the data were processed

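The authors extracted total RNA from PC-3 spheroids, made Illumina TruSeq v2 libraries, mapped reads to hg38, counted them per gene and deposited 1 table of counts per 1000000 reads (CPM) for 18144 genes. Per the study's methods they mapped with STAR and used Partek Flow. The study's methods speak of 6 weeks of exposure, and days were taken from the labels. The members and gene lists were chosen with earlier results of these data known. An offset of 0.0001 CPM was subtracted. Between 87.5% and 88.9% of values under 3 CPM were whole multiples of 1 read (tolerance 0.03 reads), which gave each depth, and no count test was run. Libraries were scaled by TMM and ratios given exact conditional binomial 95% intervals on estimated reads. limma 3.58.1 in R 4.3.3 was fitted across all genes that passed the filter, on log2(TMM-scaled CPM + 1) with a mean-variance trend, after tests on simulated data. Gene models came from the table and GENCODE 44. Named list genes were the up to 4 per list with the largest mean day-7 ratio at 10 CPM or more, and for SNAI2 the 5 genes with the highest correlation. Some genes of the lists were not analysed here. Alternatives covered scaling, pseudocount, filters, baseline and the trend. Samples came from 1 table column each, with 3 libraries of day 1 not analysed here.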

Additional observations from a re-analysis of the deposited data

Results flagged for a closer look

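Several members lay on opposite sides of their comparison on days 3 and 7, each value from 1 library against 1, and the difference between days was not tested. ZEB1 with EE against untreated was at 0.98 on day 3 and -1.66 on day 7 on the log2 scale, and with CON at 0.26 and -1.46. FN1 with EE against untreated was at 0.53 and -1.16, and CDH2 at 0.26 and -0.27. FN1 with EE against CON was at 0.67 on day 3 and -0.25 on day 7. The untreated library serves as the reference of both regimens on a day, so the pair of ZEB1 values on each day is not independent. The rank correlation of ratios with gene span also changed sign between the days, from 0.43 to -0.53 with EE, and its part in these values was not tested beyond the removal of the trend.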

How the results depend on the processing

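Of 440 recomputed member ratios under other scalings, a pseudocount, other baselines and removal of the structure trend, 411 kept their sign, 98 of them moving beyond the counting interval, and 29 changed sign. Of these 29, 19 had a counting interval that included 0 to begin with, and the other 10 are given here. With the trend removed, the log2 ratio of TWIST1 on day 7 became -0.22 with CON and -0.23 with EE, that of CDH2 0.11 and 0.25, and in untreated spheroids that of FN1 from day 0 to day 7 became -0.0633 and that of VIM from day 3 to day 7 became 0.0408. Against the untreated library of day 0, ESRP1 in CON of day 3 was at -0.0593 and CDH2 in EE of day 3 at -0.0579, and against the mean of the untreated libraries ESRP1 was at -0.0014. With deposited totals in place of TMM, which moved the median of all genes on day 7 by 0.25 with CON and 0.22 with EE, ESRP1 with CON on day 7 was at -0.13. SNAI2 between the regimens with the trend removed was at 1.20 on day 3 and 1.38 on day 7. A floor of 1 CPM, or 1.5-fold in place of 2-fold, changed the counts of genes. Between the regimens they became 298 and 352 on day 3 and 476 and 319 on day 7. With CON against untreated they became 384 and 498 on day 3 and 2872 and 4222 on day 7. With EE they became 552 and 1063 on day 3 and 3218 and 4463 on day 7. Untreated spheroids of day 7 against day 3 gave 546 and 784. limma with the 4 libraries of the 2 treatments compared called 34 genes with EE and 9 with CON, with no member. Fits without 1 library, chosen after seeing the data and with 1 residual degree of freedom, called 0 to 6174 genes with EE and 0 to 6458 with CON. The highest counts came without CTRL day 3, then without CTRL day 7 (521 and 117 genes), and the other 4 omissions called 0 to 53, the lone library being assumed to vary like the rest. The other limma alternatives called 0 genes. Libraries were matched by day through the day term, without which 0 genes were called as well, and the columns carry no replicate numbers to pair by. With 1 library per treatment and day, no difference here could be set against replicate error, and genes near 3 CPM rest on about 50 reads.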
